A study of Mus musculus with 16 samples.

Results

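In jejunal epithelium lacking the corepressor NCoR1, 733 genomic regions carried more of both H3K9ac and H3K27ac than the same tissue of wild-type mice. They were selected on the authors' H3K9ac and H3K27ac calls, as the regions of the authors' KO-higher H3K9ac list that share at least 1 bp with a region of the authors' KO-higher H3K27ac list, and they are called dual-gain regions here. They made up 38.9% of the 1883 KO-higher H3K9ac regions, and the other 1150 (H3K9ac-only regions) had no base in common with the KO-higher H3K27ac list. From the H3K27ac side, 728 of 7111 KO-higher H3K27ac regions (10.24%) took part. Both acetylation lists chose these regions, so their H3K9ac and H3K27ac values are given as a description.

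The tissue was the jejunum of C57BL/6 mice at postnatal day 12, from which intestinal epithelial cells were isolated. KO mice, called DIECUN in the labels, have an intestinal NCoR1 deletion, and WT mice, called F/FUN, do not. What the letters UN stand for, which transgene drives the deletion and how many animals were pooled are not given in the sources used here. ChIP-seq for 6 histone marks gave 12 libraries, 1 per mark and genotype, beside 4 input libraries (2 KO, 2 WT) that were not analysed here.

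NCoR1 docks on nuclear receptors that have no activating ligand, among them LXR, PPAR and the thyroid hormone receptor, and brings the histone deacetylase HDAC3 to the DNA. Deacetylases remove the acetyl groups that sit on lysines of histone tails at active promoters and enhancers. H3K9ac and H3K27ac are 2 such modifications, H3K4me3 marks active promoters, H3K4me1 marks enhancers and the flanks of promoters, and H3K9me3 and H3K27me3 mark repressed chromatin. The acetyl and the trimethyl group of H3K27 occupy the same lysine and exclude each other on a histone tail.

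Each deposited list holds the places where the library of 1 genotype exceeded the library of the other genotype for the same mark, at a q-value cutoff of 0.05. The fold is the authors' ratio of the tag pileup at a summit to the local background of the other genotype's library, and the pileup counts tags over the summit, scaled to the smaller library. With 1 library per mark and genotype there was no replicate error to set a difference against, so no p-value is given, and intervals on shares are 95% Wilson intervals that cover counting error only. For a count of 0, the share it allows is 3 counts over the number of regions or genes. That bound is lower than the upper Wilson limit. After duplicates were removed the H3K9ac libraries held 26868121 tags in KO and 24263055 in WT, and the H3K27ac libraries 31846932 in KO and 32095696 in WT. Duplicate removal kept 56.0% of KO and 64.3% of WT H3K9ac tags, against 87.1% of KO and 87.0% of WT H3K27ac tags. A lower number of cells of a type and a lower mark per cell cannot be told apart in such bulk samples. In all, 10 dual-gain regions lay in a stretch around Vil1, which encodes the enterocyte actin-bundling protein villin, on chr1:74435950-74482133 (mm9). All 10 of them, and no other dual-gain region, also overlapped KO-higher H3K9me3, with H3K9me3 folds between 25.2 and 71.0. All 10 overlapped KO-higher H3K4me3 as well. The part of the stretch in other results was not tested, and the shares with KO-higher H3K4me3 are given with and without it.

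The regions below show what membership means in bases. Each is a whole KO-higher H3K9ac region of the mm9 assembly, on the plus strand, with the bases also inside a KO-higher H3K27ac region in capitals. The first 8, all outside the Vil1 stretch, are the highest-fold intronic or intergenic regions of at most 300 bp, 1 per gene, among the 10 highest folds and the genes of the lists described further on.
Scd2 intron, chr19:44370728-44370960: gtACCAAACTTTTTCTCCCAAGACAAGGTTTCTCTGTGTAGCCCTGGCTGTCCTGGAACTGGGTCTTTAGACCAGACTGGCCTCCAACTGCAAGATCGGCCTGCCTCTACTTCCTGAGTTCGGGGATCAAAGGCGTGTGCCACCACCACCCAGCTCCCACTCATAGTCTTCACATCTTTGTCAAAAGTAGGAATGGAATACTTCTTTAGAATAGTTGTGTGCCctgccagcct
Abcg1 intron, chr17:31204442-31204657: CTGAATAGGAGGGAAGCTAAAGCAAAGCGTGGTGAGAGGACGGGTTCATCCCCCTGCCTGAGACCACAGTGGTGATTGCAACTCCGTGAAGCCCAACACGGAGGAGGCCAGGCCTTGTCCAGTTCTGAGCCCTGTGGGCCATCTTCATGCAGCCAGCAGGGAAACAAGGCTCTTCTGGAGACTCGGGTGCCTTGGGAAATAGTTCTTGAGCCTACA
Xdh upstream, chr17:74342570-74342711: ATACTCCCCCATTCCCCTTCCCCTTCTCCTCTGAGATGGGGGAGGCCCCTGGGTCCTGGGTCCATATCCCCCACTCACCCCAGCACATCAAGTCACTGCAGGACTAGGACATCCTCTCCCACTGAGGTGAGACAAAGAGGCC
Pdk4 upstream, chr6:5458306-5458473: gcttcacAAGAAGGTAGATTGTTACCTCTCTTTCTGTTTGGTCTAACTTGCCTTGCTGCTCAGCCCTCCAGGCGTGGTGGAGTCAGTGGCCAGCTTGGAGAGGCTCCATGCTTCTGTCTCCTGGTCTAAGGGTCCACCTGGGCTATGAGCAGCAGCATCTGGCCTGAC
Ppara intron, chr15:85598778-85598976: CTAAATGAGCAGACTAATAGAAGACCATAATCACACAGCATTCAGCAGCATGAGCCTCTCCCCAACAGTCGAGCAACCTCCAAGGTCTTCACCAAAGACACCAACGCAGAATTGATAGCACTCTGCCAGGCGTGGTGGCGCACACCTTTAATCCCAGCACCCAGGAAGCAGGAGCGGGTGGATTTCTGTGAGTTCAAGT
Nfe2l2 upstream, chr2:75551792-75551948: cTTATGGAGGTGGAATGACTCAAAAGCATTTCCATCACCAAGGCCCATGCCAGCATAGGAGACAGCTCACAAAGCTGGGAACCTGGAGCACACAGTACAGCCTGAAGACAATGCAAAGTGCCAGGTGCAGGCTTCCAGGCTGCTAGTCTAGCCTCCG
Abcc2 intron, chr19:43862408-43862574: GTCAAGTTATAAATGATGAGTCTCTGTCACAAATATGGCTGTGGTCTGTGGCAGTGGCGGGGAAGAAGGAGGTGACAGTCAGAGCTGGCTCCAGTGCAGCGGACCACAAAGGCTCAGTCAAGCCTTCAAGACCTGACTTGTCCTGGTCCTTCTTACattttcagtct
Abca1 upstream, chr4:53198485-53198704: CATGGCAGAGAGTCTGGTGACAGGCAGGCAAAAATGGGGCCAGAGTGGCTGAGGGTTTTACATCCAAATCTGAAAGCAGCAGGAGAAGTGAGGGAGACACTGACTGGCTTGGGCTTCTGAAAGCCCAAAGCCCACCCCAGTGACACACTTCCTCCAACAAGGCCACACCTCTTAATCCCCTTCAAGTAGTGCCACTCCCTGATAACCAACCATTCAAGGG
The last pair straddles the limit of the rule. Of all dual-gain regions, the region upstream of Efna1 shared the fewest bases with H3K27ac, 1 bp, and the region upstream of Grhl3 shared none, with a gap of 1 bp.
Efna1 upstream, chr3:89091710-89091860: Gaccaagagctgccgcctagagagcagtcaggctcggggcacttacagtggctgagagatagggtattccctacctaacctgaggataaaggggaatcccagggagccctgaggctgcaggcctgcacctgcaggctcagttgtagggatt
Grhl3 upstream, chr4:135134921-135135058: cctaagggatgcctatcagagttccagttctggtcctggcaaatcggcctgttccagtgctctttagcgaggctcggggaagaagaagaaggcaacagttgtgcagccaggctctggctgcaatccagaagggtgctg
In the first 8 the capitals cover all of the region or lack only a short edge, and this held for most dual-gain regions.

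Where the H3K9ac and H3K27ac gains met, they mostly lay on top of each other. The median dual-gain region shared 164 bp, or 95.7% of its length, with KO-higher H3K27ac. In 295 of the 733 (40.2%) the H3K9ac region lay wholly inside the H3K27ac region, and 704 (96.0%) shared at least 50% of their bases. The 2 summits were a median of 22 bp apart, with quartiles of 10 and 44 bp. Nearly all, 726, shared bases with 1 H3K27ac region, and 7 with 2 or more. Few regions sat at the limit: after Efna1, the fewest shared bases were 11 bp at Pacsin2 and 21 bp at Tsc22d1. Just outside, the H3K9ac-only region at Chd3 touched a KO-higher H3K27ac region without sharing a base, and the one at Ksr1 lay 29 bp away.

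Regions with the larger H3K9ac fold tended to have the larger H3K27ac fold. Over the 733 regions Spearman's rho of the folds was 0.71 (0.70 for the 723 outside the Vil1 stretch), where the points share the 4 libraries and the selection. The median H3K9ac fold was 2.88, with quartiles of 2.30 and 3.62, and the median H3K27ac fold of the same regions was 2.32, with quartiles of 1.91 and 3.06. In 166 regions (22.6%) the H3K27ac fold exceeded the H3K9ac fold. The median H3K9ac fold of the H3K9ac-only regions was 2.94, with quartiles of 2.30 and 3.88. The KO-higher H3K27ac regions that took part had a median fold of 2.32, against 2.54 for the 6383 without KO-higher H3K9ac.

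**Figure D1:**
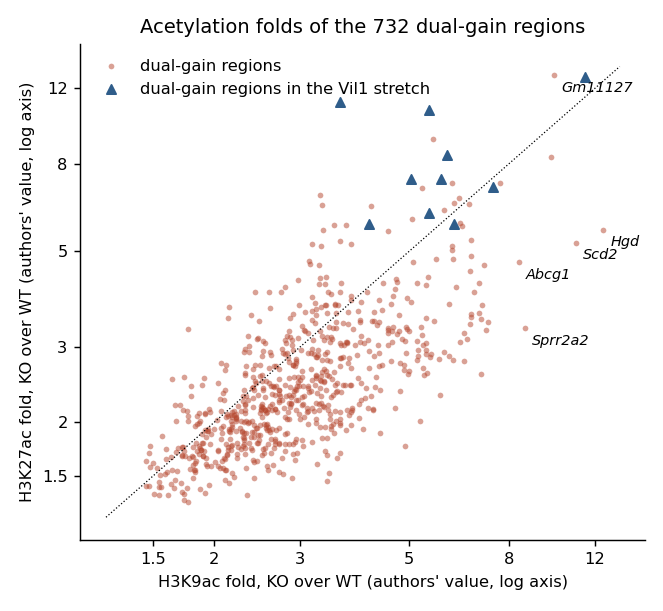
H3K9ac fold (x axis, log scale) against H3K27ac fold (y axis, log scale) of the 732 dual-gain regions on chromosomes, 1 point per region. A dotted line shows equal folds, and triangles are the 10 regions of the Vil1 stretch. The points run along the diagonal (Spearman's rho 0.71 over all 733 regions), mostly below it, while the Vil1 triangles lie mostly above it.

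The highest H3K9ac fold lay in the promoter of Hgd, homogentisate dioxygenase of tyrosine breakdown, with a KO H3K9ac pileup of 67.7 tags, a fold of 12.48 and an H3K27ac fold of 5.62. Scd2, a stearoyl-CoA desaturase that makes monounsaturated fatty acids, held 3 of the 10 highest, with H3K9ac folds of 10.99, 9.78 and 7.69. Vil1 held 2, with folds of 11.5 and 7.45. A region 25544 bp upstream of Gm11127, a gene of the major histocompatibility cluster, had an H3K9ac fold of 9.91 and the highest H3K27ac fold of all, 12.9. The promoter of Sprr2a2, a small proline-rich protein of the barrier, had an H3K9ac fold of 8.65. An intron of Abcg1, a cholesterol exporter, had 8.39, and a region 43085 bp upstream of Xdh, xanthine dehydrogenase, had 7.26. Gm11127, Sprr2a2 and the Scd genes belong to families of related genes. Whether the authors' alignment divided tags between relatives was not tested.

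Some strong H3K9ac gains had no H3K27ac region on them. The highest H3K9ac-only folds were 11.4 and 8.56 near Ifit3, an interferon-induced gene, 9.77 in an intron of Cyp3a25, a drug-metabolizing cytochrome P450, 8.93 in Larp4b and 8.23 at the promoter of Akr1b7. Most such regions still had H3K27ac gain in the neighbourhood. The nearest KO-higher H3K27ac region was a median of 2682 bp away, within 1 kb for 307 of the 1150 (26.7%), within 10 kb for 825 (71.7%) and over 50 kb away for 141 (12.3%). Near Cyp3a25, Larp4b and the stronger Ifit3 region the distances were 2820, 566 and 4202 bp.

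Dual-gain regions were wider than H3K9ac-only regions. Their median width was 186 bp (quartiles 155 and 247) against 158 bp (quartiles 146 and 186), and 24.0% (21.1 to 27.2) against 8.26% (6.81 to 9.99) were over 250 bp wide. Looked at the other way, the share of KO-higher H3K9ac regions that were dual-gain climbed with width. It was 26.6% of 553 regions of at most 150 bp, 35.6% of 789 up to 200 bp, 47.8% of 270 up to 250 bp, 59.2% of 125 up to 300 bp, 66.1% of 115 up to 500 bp and 83.9% of the 31 wider ones (24 of 29 without the Vil1 stretch). A wider region has more bases to share, and that part of the trend was not tested. Fold gave no such trend: the share was 39.5% below a fold of 2, 40.6% from 2 to 3, 39.7% from 3 to 4, 27.2% from 4 to 5, 42.7% from 5 to 7 and 51.7% of the 29 regions above 7 (13 of 27 without the Vil1 stretch). The widest were the Vil1 promoter region of 5431 bp, the Srebf1 region of 1807 bp and the Abca1 promoter region of 1258 bp.

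Position relative to genes was similar in both kinds, with overlapping intervals for each place. Promoters, here within 1 kb of a protein-coding transcription start, held 106 dual-gain regions, or 14.5% (12.1 to 17.2), against 15.8% (13.8 to 18.05) of H3K9ac-only regions. Introns held 49.4% against 52.6%, intergenic sequence 28.5% against 25.3% and exons 7.50% against 6.26%. The median distance to a start was 6632 bp against 7601 bp. GC content over the summit and 100 bases to either side had a median of 54.7% in dual-gain and 52.7% in H3K9ac-only regions. Among dual-gain regions, the 106 at promoters had a higher median H3K9ac pileup, 92.6, and a lower median fold, 2.17, than the 627 elsewhere, with 52.4 and 2.97. H3K9ac-only regions showed the same contrast, with pileups of 85.3 and 47.0 and folds of 2.29 and 3.12.

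**Figure D2:**
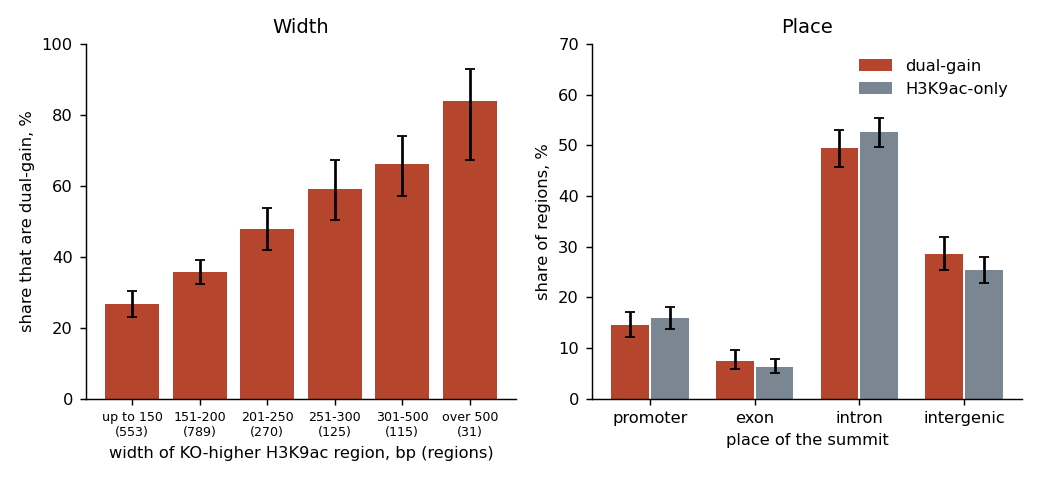
Left, the share of KO-higher H3K9ac regions that are dual-gain regions (y axis, percent) by class of width (x axis, bp, with the number of regions). Right, the share of dual-gain and of H3K9ac-only regions (y axis, percent) whose summit lay in each place. Error bars are 95% Wilson intervals. The left bars climb to 83.9% above 500 bp, while the paired bars on the right have overlapping intervals.

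Of the other marks, H3K4me3 and H3K4me1 most often differed at dual-gain regions. KO-higher H3K4me3 overlapped 31 dual-gain regions, 4.23% (2.995 to 5.94), against 11 H3K9ac-only regions, 0.957% (0.535 to 1.70). Without the Vil1 stretch the share was 21 of 723, 2.90% (1.91 to 4.40). With both kinds held to regions of at most 500 bp it was 2.83% against 0.961%, and with the Vil1 stretch also left out 12 of 699, 1.72% (0.985 to 2.98), whose interval overlaps that of the H3K9ac-only regions, 0.537 to 1.71. Of the 131 KO-higher H3K4me3 regions, 32 shared bases with a dual-gain region, 11 with an H3K9ac-only region and 8 with KO-higher H3K27ac alone. Outside the Vil1 stretch 24 of 123 shared bases with a dual-gain region. The difference was visible at promoters, where 8 of 106 dual-gain regions, 7.55% (3.87 to 14.2), against 0 of 182 H3K9ac-only regions, which allows a share of up to 1.65%, overlapped KO-higher H3K4me3. Without the Vil1 stretch the dual-gain count at promoters was 7 of 105, 6.67% (3.27 to 13.1). Of the 8 promoter regions, those at Hgd, Vil1, Abca1, Scd2 and Srebf1 were 886 to 5431 bp wide. Those at Lpin2 and Abcg5 were 138 to 339 bp wide. The promoter contrast was not computed for regions of at most 500 bp.

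Outside Vil1, the 21 regions with all 3 gains belonged to 16 genes. Of these, 3 lay at Scd2, with H3K4me3 folds between 3.53 and 4.09. Another 3 lay at Abcg5 and 1 at Abcg8, the partners in the sterol exporter of the apical membrane, with H3K4me3 folds between 2.14 and 4.78. The promoter of Abca1, the basolateral cholesterol exporter, had folds of 6.67 for H3K9ac, 4.50 for H3K27ac and 3.39 for H3K4me3. A region 747 bp from an internal start of Srebf1, the transcription factor of fatty acid synthesis, had folds of 2.35, 2.92 and 4.31 for the same marks. Apob, the structural protein of chylomicrons, Pdk4, a kinase that restrains glucose oxidation, and Lpin2, a phosphatidate phosphatase, each had 1. The others were at Hgd, with an H3K4me3 fold of 9.74, Gm11127 (10.7), Areg, Sprr2a2, Sprr2a3, Cyp3a25, Bcar3 and Efna1.

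WT-higher H3K4me1 overlapped 31 dual-gain regions, 4.23% (2.995 to 5.94), against 7 H3K9ac-only regions, 0.609% (0.295 to 1.25), and the Vil1 stretch held none of them. Of the 31 regions, 1 lay on a contig outside the mouse chromosomes, 2 had no start within 50 kb, and 28 belonged to 26 genes, including Scd1, Scd2, Scd3, Krt20, Fos, Ugcg and Eps8. The Abca1 promoter region had the highest H3K9ac fold of these, 6.67, with a WT-over-KO H3K4me1 fold of 2.53, followed by a region 10046 bp downstream of the start of Scd3 with 5.90 and 3.03. Regions in D130043K22Rik and Ugcg and near Scd1 came next, with H3K9ac folds of 4.36, 3.81 and 3.72. In all, 4 regions, at Abca1, Abcg5, Srebf1 and Efna1, were KO-higher in H3K9ac, H3K27ac and H3K4me3 and WT-higher in H3K4me1. H3K4me1 and H3K4me3 are states of the same lysine.

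Among dual-gain regions, less H3K27me3 in KO was found only at the Scd cluster. The WT-higher H3K27me3 list held 395 regions, against 2774 for WT-higher H3K4me1 and 4166 for WT-higher H3K4me3. The part of list size in these overlap counts was not tested. WT-higher H3K27me3 overlapped 5 dual-gain regions, all at Scd2 and Scd3, with WT-over-KO folds between 5.15 and 6.51, and 0 of 1150 H3K9ac-only regions, which allows up to 0.261%. The Scd2 promoter region carried the highest, 6.51, beside KO-over-WT folds of 6.12 for H3K9ac, 7.23 for H3K27ac and 4.06 for H3K4me3. WT-higher H3K4me3 overlapped 3 dual-gain regions (Scd2, Cyp2d22 and Atf1) and 8 H3K9ac-only regions. WT-higher H3K9me3 and WT-higher H3K9ac overlapped none of either kind, and WT-higher H3K27ac overlapped 0 dual-gain regions and 1 H3K9ac-only region.

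**Figure D3:**
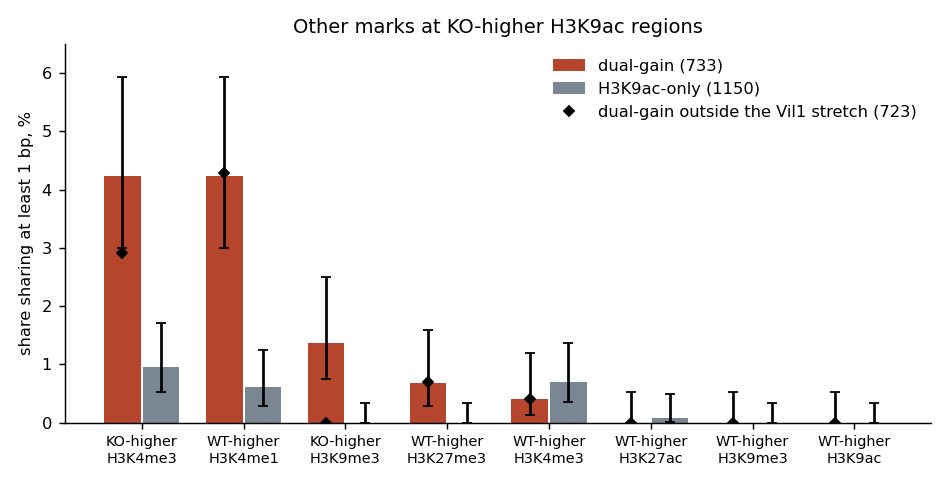
Share (y axis, percent) of the 733 dual-gain and the 1150 H3K9ac-only regions that shared at least 1 bp with each other list (x axis), with 95% Wilson intervals, and diamonds for the 723 dual-gain regions outside the Vil1 stretch. KO-higher H3K4me3 and WT-higher H3K4me1 stand at 4.23% each in dual-gain regions, against 0.957% and 0.609%, and the KO-higher H3K9me3 bar falls to 0 without the Vil1 stretch.

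Dual-gain regions clustered in and around some genes. Joined where they lay within 10 kb of each other, the 732 regions on chromosomes formed 460 stretches. Of these, 333 held 1 region, 111 held 2 to 4, and 16 held 5 or more, with 133 regions among them. The longest row lay at Vegfa, the vascular growth factor gene, with 21 dual-gain regions over 35638 bp, beside 26 KO-higher H3K27ac and 4 H3K9ac-only regions. This row ran from 2.915 to 38.552 kb downstream of the gene's start, past its end at 15.384 kb, with no dual-gain region at the promoter. None of these 21 exceeded an H3K9ac fold of 3.98. Srebf1 had 15 over 19112 bp, with folds between 1.63 and 4.72, and a further 7 over 15881 bp at Srebf1 and its upstream neighbour Tom1l2. Abcg5 and Abcg8, which face each other across a short gap, had 11 over 16260 bp. Hgd had 8, Nr1i2, the xenobiotic receptor PXR, 8, and Adipor2, an adiponectin receptor, 8. Scd2 had 7 over 16479 bp, Lpcat3 and its neighbour Emg1 7, and Ppara with its neighbour 2210021J22Rik 6. Chromosome 17, which holds Vegfa, Abcg5 and Abcg8, had the highest share of dual-gain regions among its KO-higher H3K9ac regions, 77 of 146 or 52.7% (44.7 to 60.7).

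**Figure D4:**
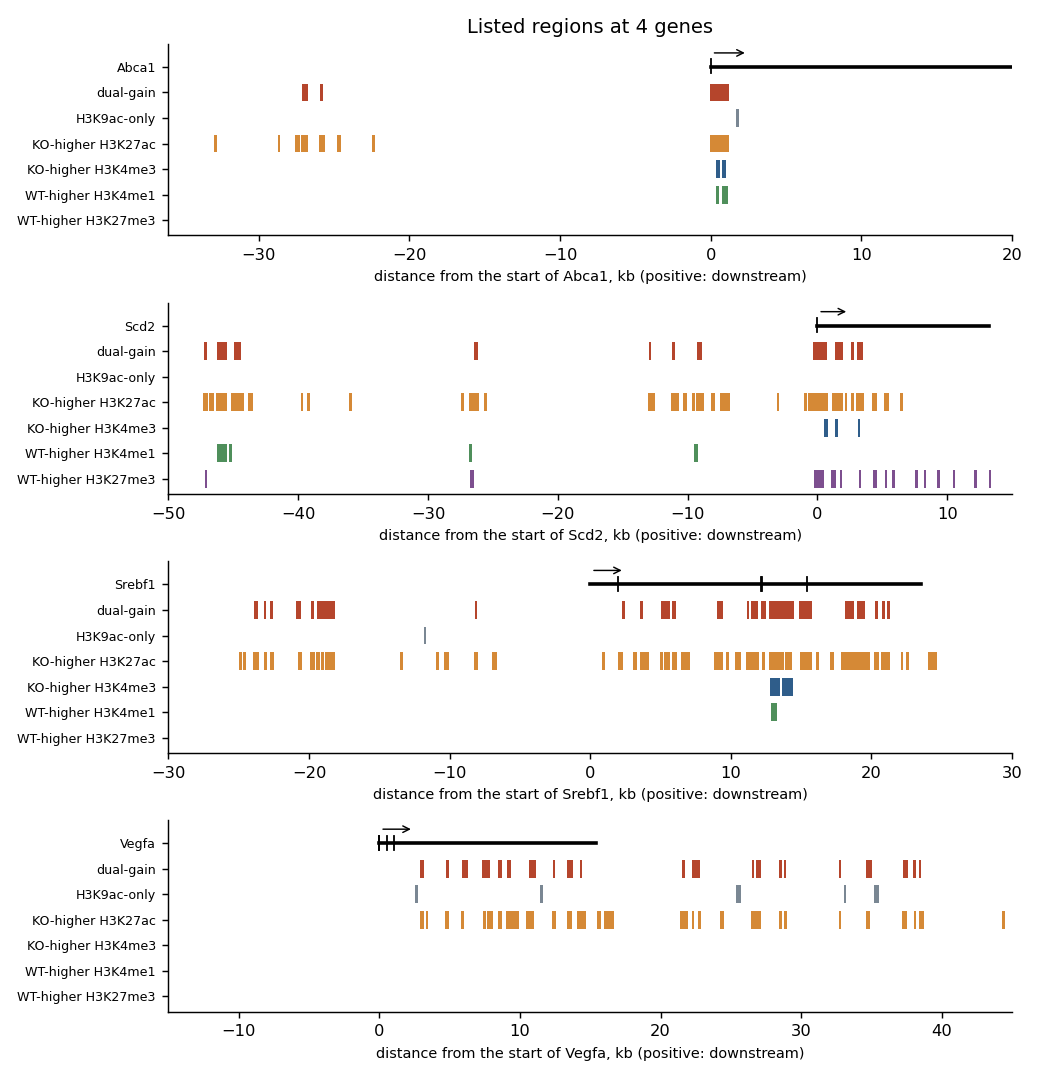
Listed regions along 4 genes, by distance from the gene's start in kb (x axis, positive downstream). The black line is the gene, the arrow its direction, ticks are annotated coding starts, and each row of boxes is 1 list. In and downstream of Vegfa lies a row of dual-gain regions with no H3K4me3 or H3K4me1 difference. At Abca1, Scd2 and Srebf1 the KO-higher H3K4me3 boxes inside the plotted windows fall on dual-gain regions.

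By the nearest start within 50 kb, the dual-gain regions belonged to 375 of 21706 protein-coding genes (1.73%). A further 493 genes (2.27%) had H3K9ac-only regions and no dual-gain region, and 336 of those had KO-higher H3K27ac elsewhere at the gene. Of the 375 genes, 242 had 1 dual-gain region, 67 had 2, 66 had 3 or more and 20 had 5 or more. In 185 of them H3K9ac-only regions lay at the same gene, and 90 had a dual-gain region at the promoter. The genes with the most were Vegfa with 21, Srebf1 with 16, Vil1 with 10, and Scd2, Hgd, Nr1i2 and Adipor2 with 8 each. Ppara and Sepp1, a selenium carrier, had 7 each.

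Targets of the oxysterol receptor LXR had the highest share of the gene lists, 8 of 16 genes. Of all protein-coding genes, 1.73% had a dual-gain region. Besides Abca1, Abcg5, Abcg8, Scd2 and Srebf1 the LXR targets hit were Abcg1, Scd1 and Lpcat3, an enzyme that remodels phospholipids. Abcg5 and Abcg8 shared 1 stretch, so these are not 8 separate places. The lists were written with earlier results of these data known, so their ranking is a description only. The chylomicron, PPAR and brush border lists below stood at 33.3%, 32.5% and 32.1%. No LXR target had H3K9ac-only regions without a dual-gain region, and 7 (Abcc1, Arl4c, Lpl, Mylip, Nr1h3, Pltp and Smpdl3a) had neither. Scd2 had the highest H3K9ac fold of the list, 10.99, followed by Abcg1 (8.39), Abca1 (6.67) and Scd1 (5.41). At Abca1, 1 of the 3 regions lay at the promoter and the others upstream, where the region printed above, 25820 bp from the start, had folds of 6.17 for H3K9ac and 4.80 for H3K27ac.

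Fatty acid use under the receptor PPAR gave 13 of 40 genes. Pdk4 led with a fold of 7.03, then Ppara (6.69), which encodes the receptor PPAR alpha itself, Plin2 (6.04), a lipid droplet coat protein, and Hadhb (3.62), of mitochondrial beta oxidation. A further 4, Acaa1a, Acadl, Cpt1a and Slc27a2, had H3K9ac-only regions. Of the 15 chylomicron assembly genes 5 had a dual-gain region, with Apob at 5.89, Mttp, the triglyceride transfer protein that loads it, at 3.35, Mogat2 at 2.17 and Apoc2 at 2.07. Bile acid genes of the receptor FXR had none among 12, and cholesterol synthesis and uptake genes had none among 19, although 6 cholesterol genes had KO-higher H3K27ac. Against 1.73% of all protein-coding genes, a count of 0 in lists of this size is near the background and is no result about them.

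Genes of the absorptive cell surface and of detoxification were also present. Brush border and digestion genes gave 9 of 28, with Vil1 at 11.5, Krt20, a keratin of mature enterocytes, at 4.91, Eps8, a microvillus capping protein, at 4.25 and Mgam, a starch-digesting glucosidase, at 4.17. Without the Vil1 stretch the count was 8. Adult enterocyte genes gave 4 of 14 (Krt20, Mgam, Slc5a1 and Rbp2) and genes of the suckling enterocyte 1 of 17, Pck1 with a fold of 1.89, while 5 of those 17 had H3K9ac-only regions. Detoxification genes gave 8 of 47, with Nfe2l2, the oxidative stress regulator NRF2, at 6.65, Abcc2, an exporter of conjugates, at 6.23, Ugt2a3 at 6.12 and Cyp3a25 at 5.43. Of 28 genes of thyroid hormone, vitamin D and retinoid action 3 were hit, namely Rdh7 (4.61), Thra (2.62) and Rbp2 (2.46). Enterocyte transcription factors gave 2 of 19, Isx (3.67) and Creb3l3 (1.47), and 5 more had H3K9ac-only regions.

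No gene of the NCoR complex list (6), the stem cell and Wnt list (18) or the proliferation list (16) had a dual-gain region. The same was true of the markers of other cells that such a preparation could hold, 23 secretory, 17 immune and 18 stromal genes, of which 1, Chga, had an H3K9ac-only region. With 1.73% of all protein-coding genes hit, a count of 0 in each of these lists is near the background and says nothing about them. Of the 8 enterocyte markers counted, Vil1, Krt20, Fabp1 and Apoa1 had dual-gain regions, and Alpi had H3K9ac-only regions. The 10 regions of Vil1 all lay in the Vil1 stretch, where they also overlapped KO-higher H3K9me3. Fabp2, Apoa4 and Hnf4a had KO-higher H3K27ac without H3K9ac. Cdx1, also planned as a marker, lies on chromosome 18, where no list had a region. Of the wider brush border list, 8 of 28 genes, among them Anpep and Sis, had neither gain. These lists of differences do not show the level of a mark in either genotype.

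RNA values were matched to 52 of the 375 genes with dual-gain regions, and most of these lay above 0 in KO over WT. The authors' deposited table gives a log2 fold change and an FDR for the genes nearest WT-higher H3K4me1 regions only, and its direction was read as KO over WT. Of the 1549 genes in the table, 1296 matched a gene used here. Among these 1296, 75 (5.79%) were higher in KO and 136 (10.5%) lower at an FDR under 0.05. Of the 52 genes with a dual-gain region in the authors' deposited table, 29 were higher, 55.8% (42.3 to 68.4), and 0 lower, which allows up to 5.77%. The median log2 fold change of the 52 was 0.44, and 48 were above 0. Genes with H3K9ac-only regions had 16 of 49 higher, 32.7% (21.2 to 46.6), 3 lower and a median of 0.10, and the intervals of these 2 shares overlap. Genes with KO-higher H3K27ac and no KO-higher H3K9ac had 22 of 131 higher (16.8%) and 7 lower. Genes with neither had 8 of 1064 higher (0.752%) and 126 lower (11.8%).

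Among the 52 genes, those with more dual-gain regions had RNA more often higher in KO. The share was 9 of 27 with 1 region, 33.3% (18.6 to 52.2), 7 of 10 with 2, and 13 of 15 with 3 or more, 86.7% (62.1 to 96.3), and the intervals for 1 and for 3 or more do not overlap. With a dual-gain region at the promoter it was 14 of 15, 93.3% (70.2 to 98.8), against 15 of 37 without, 40.5% (26.3 to 56.5). Where a dual-gain region itself overlapped WT-higher H3K4me1, the mark by which the table was made, RNA was higher for 13 of 16 genes, against 16 of the other 36. In the authors' deposited table the largest log2 fold change among them belonged to Abca1 at 2.83 (FDR 8.6e-113). Next in that table came Scd1 at 1.85 and Scd2 at 1.72, then Abcg5 at 1.23 and Krt20 at 1.10, with FDR values of 1.32e-10 or less. The lowest of the 52 genes in that table were -3.02 for Scd3, -0.27 for Grhl2, -0.15 for Sik3, -0.01 for Fhdc1 and 0.02 for Dopey2. None of these passed the FDR threshold. BC048502, a gene with neither gain, had the same value as Scd3, -3.02, and the amount of RNA behind it was not examined. Lpcat3 stood at 1.04, Plin2 at 0.92 and Mttp at 0.59 in the authors' deposited table, while Pck1 (0.10, FDR 0.668) and Rbp2 (0.14, FDR 0.536) did not pass.

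**Figure D5:**
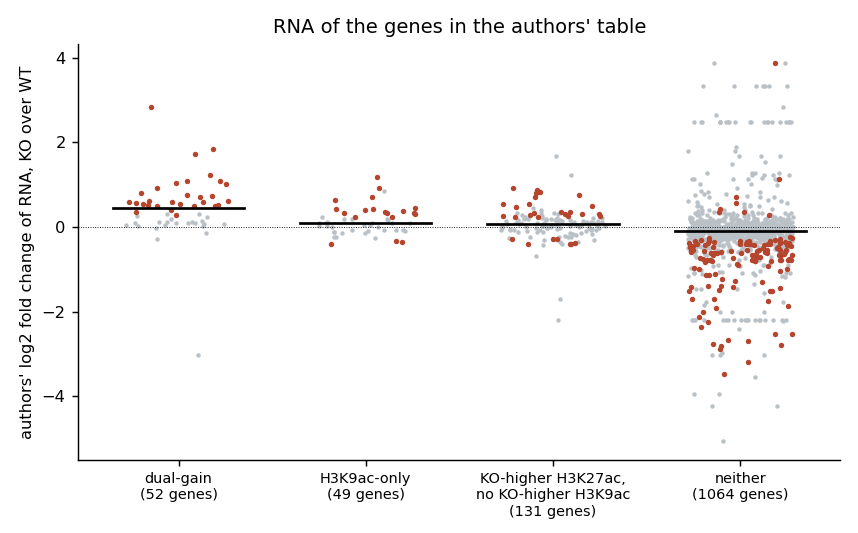
Authors' log2 fold change of RNA, KO over WT (y axis), for the matched genes of the deposited table in 4 classes (x axis). Each point is 1 gene, red at an FDR under 0.05 and grey otherwise, with a black line at the median. The medians are 0.44, 0.10, 0.08 and -0.09 from left to right, and no red point of the leftmost class lies below 0.

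Sequence at the summits differed little between the 2 kinds of region. Nuclear receptors bind pairs of the hexamer AGGTCA, as direct repeats separated by 0 to 8 bases (DR0 to DR8) or as an inverted repeat (IR1). Allowing 2 mismatches on either strand in the 200 bases around the summit, where a hexamer may count for several spacings, each DR was found in 2.19 to 4.23% of dual-gain and 2.09 to 4.78% of H3K9ac-only regions, against 1.49 to 2.56% of 2148 WT-higher H3K9ac regions. DR4, the spacing LXR and the thyroid hormone receptor prefer, was in 2.73% (1.78 to 4.18) against 2.09% (1.41 to 3.09). The PPAR spacing DR1 was in 2.32% (1.45 to 3.69) against 3.04% (2.20 to 4.203). The HNF4 motif CAAAGTCCA, with 1 mismatch allowed, was in 5.33% against 5.65%, and the AP1 motif TGACTCA in 3.83% against 3.04%. A match is a description of these letters and does not show binding.

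A DR4 with at most 1 mismatch to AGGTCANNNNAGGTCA was found in 4 dual-gain regions, 0 H3K9ac-only regions and 1 WT-higher H3K9ac region. The choice of these 4 was made with their values in view, and they are shown with the hexamers in capitals, 5 bases to either side, on the strand of the match in mm9.
Lrrc8d intron, chr5:106183961-106183986, minus strand: tctgtAGGGCActggAGGTCAgagac
Tmco4 upstream, chr4:138527195-138527220, minus strand: gtcaaAGGTCAtcctAGGTAAtttag
Cand1 intron, chr10:118641564-118641589, plus strand: tcctgAGGTCCctgcAGGTCAaaagg
Fam102a intron, chr2:32397084-32397109, minus strand: caaccAGATCAcctcAGGTCAgggct
Their H3K9ac folds were 3.74, 2.08, 2.04 and 1.87 in that order, so that 3 of them lay below the median of dual-gain regions. None of the 4 genes is on the LXR list.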

How the data were processed

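The labels' protocols give single-end sequencing of 50 cycles and alignment to mm9. Tools in the submitters' processing notes are Bowtie2 2.2.9, MACS2 2.1.1, HOMER 3.12 and CASAVA 1.8.2. The headers of the lists differ from this: they record MACS 2.0.10.20130419 and 75 bp tags, which was not resolved. Per the file headers, the authors called regions with the other genotype's library as control, at a q-value cutoff of 0.05, with 1 tag kept per position and the larger library scaled to the smaller. Per region the authors deposited the pileup (a signal in tags), the fold, which is a ratio to the local background, and -log10 of the p-value and q-value. Deposited lists of KO H3K27me3 and KO H3K4me1 repeat the WT regions, so 10 lists were used. For the genes nearest H3K4me1 regions the authors deposited log2 changes of RNA with an adjusted p-value (FDR). HOMER puts the baseline first in such names, so the sign was taken to be KO over WT. The 12 per-library columns of that table entered no calculation, although a few of their values were seen when it was opened.

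Overlaps, distances and shares were computed with Python 3.11.15, pandas 2.3.3, numpy 2.4.6 and scipy 1.17.1. A region belonged to the protein-coding GENCODE gene of mm9 with the nearest start within 50 kb of its summit. The authors' nearest gene of H3K4me1 regions was the same for 75.4% of 2751. No region lay on chromosome 18. The alignment also held a human contig, outside the mouse chromosomes, with UGT1A in its name. It carried 1 dual-gain region, which was left out of gene counts. Its bearing on the regions at the mouse Ugt1a genes was not tested. Of 361 listed gene names 353 matched a gene. On simulated data the overlap step found 200 of 200 planted regions, and the DR4 search 1000 of 1000 planted motifs.

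The dual-gain regions and the gene lists were chosen with earlier results of these data known. Genes were named by rule: the 10 highest H3K9ac folds of either kind, the 10 genes with the most dual-gain regions, those with KO-higher H3K4me3, the 5 highest with WT-higher H3K4me1, up to 4 per gene list, and the 5 highest and lowest RNA changes. Genes listed beyond these complete a count and were picked with their values in view. Whole regions of at most 300 bp are printed in place of the shorter windows first planned, so that the shared bases can be seen.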

Additional observations from a re-analysis of the deposited data

How the results depend on the processing

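Asking for a -log10 q of at least 5 in both acetylation lists left 420 dual-gain regions at 229 genes, with KO-higher H3K4me3 at 6.19% of them (3.90% without the Vil1 stretch). A fold of at least 4 in both left 47 regions at 28 genes, 10.6% at promoters, with a median width of 228 bp, KO-higher H3K4me3 at 36.2% (8 of 38, 21.1%, without the Vil1 stretch), RNA higher for 40.0% of the 5 genes measured, 5 genes of the 5 lipid and bile acid lists in place of 26, and a DR1 motif in 0. Merging H3K9ac regions within 1 kb gave a median width of 204 bp. Holding H3K9ac regions to 500 bp gave KO-higher H3K4me3 at 2.83%, and leaving out the Vil1 stretch, an alternative chosen after seeing the data, gave 2.90% (1.72% with both). Promoters of up to 2.5 kb held 27.3% of dual-gain regions. The DR1 motif was in 0.137% with 1 mismatch fewer and in 5.87% of 400-base windows. The other 61 values of this kind stayed within 1.5 times (counts) or within the interval of the value reported. Counts of single gene lists were read separately, and 14 moved while 122 did not, all moves under the stricter q or fold. At the stricter q, chylomicron genes fell from 5 to 2, adult enterocyte genes from 4 to 2 and detoxification genes from 8 to 5. At the stricter fold, LXR targets fell from 8 to 3. Asking for 50% of the bases, or for the H3K9ac summit, to be shared gave 704 and 708 regions. The cause of these moves was not tested beyond the fewer regions or wider windows that each alternative sets. No paired analysis was possible because each mark and genotype had 1 library.

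The lists give no value for regions below the cutoff, so H3K27ac that missed it cannot be told apart from no gain. Duplicate removal kept a smaller share of tags in the H3K9ac than in the H3K27ac libraries.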
